A study of Mus musculus with 36 samples.

Results

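The genes described are those of the cytosolic ribosomal proteins, taken as every protein-coding gene whose symbol follows the Rpl or Rps number pattern, together with Rpsa, Rplp0, Rplp1 and Rplp2. The rule found 82 of the 37315 genes counted, 32 of the small subunit and 50 of the large subunit, on 19 chromosomes. The rule uses symbols and no measured value, though it was set with earlier results of these data known. Pseudogenes were left out. RNA had been sequenced from the whole hippocampus of single mice of 6 inbred strains, with 3 males and 3 females of each, giving 36 libraries in 12 groups. The labels name no treatment, and animals were 62 to 64 days old. Females were 63 and males 62 days old in DBA/1J, 129S1/SvImJ and A/J. In C57BL/6J females were 64 and males 63, and in DBA/2J and PWD/Ph both sexes were 62. Each PWD/Ph animal was kept alone, whereas animals of all other strains shared cages. Males and females received different spike-in mixtures, so mixture and sex cannot be told apart. Libraries had been pooled 6 to a sequencing lane. The labels do not name the lanes, so lane and strain cannot be told apart. The labels name separate animals as replicates. In bulk tissue, fewer cells of a type and less RNA per cell cannot be told apart.

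A cytosolic ribosome joins a small subunit, which reads the messenger RNA, to a large subunit, which forms peptide bonds. Each ribosomal protein is needed in step with the others, and their messenger RNAs form one of the best known sets of genes whose translation is governed together by mTORC1 through a run of pyrimidines at the very start of the transcript. In the hippocampus ribosomes occur in cell bodies and also in dendrites, where local protein synthesis accompanies synaptic plasticity.

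Sequences around the annotated transcription start were available from RefSeq (GRCm38.p6) for 62 of the 82 members, in 74 entries of 300 bases. A run of 8 or more consecutive C or T bases was sought between bases -20 and +21, in the sense of the transcript. It was present in 32 of the 74 entries (43.2%), against 5404 of 32851 promoter entries of all genes (16.4%). Such a run may lie anywhere in that window, so it need not be at the very start of the transcript. The letters CCGGAAG, which match the binding preference of ETS factors, occurred on either strand in 27 entries (36.5%) against 8.86% of all entries. AAGATGG, which matches YY1, occurred in 12 entries (16.2%) against 6.34%. TATAAA occurred in 7 (9.46%) against 13.6%. AAGATGG and CCGGAAG can share the bases AAG. A match of letters is a description and not a site of binding. The bases from -60 to +20 are shown for 7 of the 8 members with the smallest p for any strain difference, which is not an order by size of change. The longest run of C and T near the start is in capitals. All sequences are of the build GRCm38.p6, so they do not show differences between the strains. The windows lie for Rpsa at chr9:120127706-120127785 (plus strand), Rps18 at chr17:33955646-33955725 (minus strand), Rps2 at chr17:24720003-24720082 (plus strand), Rps26 at chr10:128626487-128626566 (minus strand), Rpl37 at chr15:5116553-5116632 (plus strand), Rpl35a at chr16:33056422-33056501 (plus strand), and Rpl12 at chr2:32961652-32961731 (plus strand). Rpl29 is the eighth. For Rpl35a, the entry with the longest run, of 3 entries, is shown.
Rpsa: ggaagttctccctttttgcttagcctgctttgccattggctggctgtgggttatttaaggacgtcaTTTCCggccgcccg
Rps18: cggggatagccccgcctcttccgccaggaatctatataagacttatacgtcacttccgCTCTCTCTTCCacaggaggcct
Rps2: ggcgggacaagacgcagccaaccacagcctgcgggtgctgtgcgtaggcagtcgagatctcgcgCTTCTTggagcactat
Rps26: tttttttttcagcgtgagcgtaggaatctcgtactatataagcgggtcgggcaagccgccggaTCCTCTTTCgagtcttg
Rpl37: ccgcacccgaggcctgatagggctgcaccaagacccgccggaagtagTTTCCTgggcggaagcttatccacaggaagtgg
Rpl35a: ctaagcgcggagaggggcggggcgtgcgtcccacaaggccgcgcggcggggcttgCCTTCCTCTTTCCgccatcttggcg
Rpl12: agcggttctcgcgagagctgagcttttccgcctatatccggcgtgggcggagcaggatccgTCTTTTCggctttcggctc
The run was 13 bases in the Rpl35a entry shown, and 5 and 4 in its others. It was 11 bases in Rps18 and 9 in Rps26. It was 7 bases in Rpl12, 6 in Rps2 and Rpl37, and 5 in Rpsa. The Rpl37 run began at base -13, the Rps2 run at +5 and the Rpsa run at +7.

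Library totals ran from 6493512 to 35232515 counts, with a median of 21144604, and the 3 shallowest libraries, at 6493512, 7422602 and 7814418 counts, were all of DBA/2J. Of the 82 members, 79 had enough counts to be tested (all 32 of the small subunit and 47 of the large). Their transcripts were short, with a median length of 632 bases against 1345 for the 19702 genes tested, and their median GC content was 51.9% against 50.4%. Levels below are CPM, counts divided by library size and scaled by edgeR's TMM factors. A member is called changed at a Benjamini-Hochberg adjusted p below 0.05 over all tested genes in edgeR's quasi-likelihood test of 12 group means.

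Per transcript length, as deposited FPKM, Rplp1 had the highest mean over all libraries at 423 ± 216 (SD, n = 36). It was first in 5 strains, while in PWD/Ph Rpl41 had a mean of 225 and Rplp1 of 211 FPKM. It encodes an acidic protein of the stalk that recruits elongation factors. Rpl41 followed at 290 ± 113, Rpl13a at 276 ± 86.9, Rps15 at 256 ± 122 and Rps21 at 247 ± 120 FPKM. These SDs span the differences between neighbours in that order, and the FPKM tables had been deposited strain by strain. Of the 79 tested members, 74 had a mean above 50 FPKM, and the median was 117 FPKM against 4.03 for all tested genes. The paralogs were at the other end. Rps27l, a p53-inducible relative of Rps27, had 12.9 ± 2.76 FPKM and Rpl7l1 had 9.11 ± 1.11. Rpl22l1, a paralog of Rpl22, stood higher at 38.2 ± 10.9 FPKM. Rpl3l, known from striated muscle, and Rpl39l, known from testis, had at most 6 and 4 counts in any library. Rpl10l, a testis paralog of Rpl10, had 0 counts in all 36 libraries, which in the shallowest library allows up to 3 counts or 0.462 CPM, counting error only. These 3 were not tested.

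Strains differed in every one of the 79 tested members, in a background where 92% of all tested genes differed. The summed level of the 82 members was highest in 129S1/SvImJ, where the lowest, median and highest of 6 libraries were 9323, 11747 and 13347 CPM. The next strains lay close together. DBA/1J had 7671, 8858 and 9657 CPM, A/J had 8030, 8899 and 9328, and C57BL/6J had 7837, 7987 and 8935. PWD/Ph had 6500, 6876 and 7702 CPM and DBA/2J had 6594, 6769 and 7436. The 6 DBA/2J libraries lay below every library of 129S1/SvImJ, A/J, C57BL/6J and DBA/1J, while the lowest 129S1/SvImJ library lay inside the ranges of DBA/1J and A/J. As a share of all counts the family took between 0.601% and 1.41% of a library. Both subunits kept this order of extremes. The small subunit members summed to a mean of 4247 ± 602 CPM in 129S1/SvImJ and 2407 ± 132 in DBA/2J (SD, n = 6), and the large subunit members to 7171 ± 963 and 4438 ± 180.

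**Figure D1:**
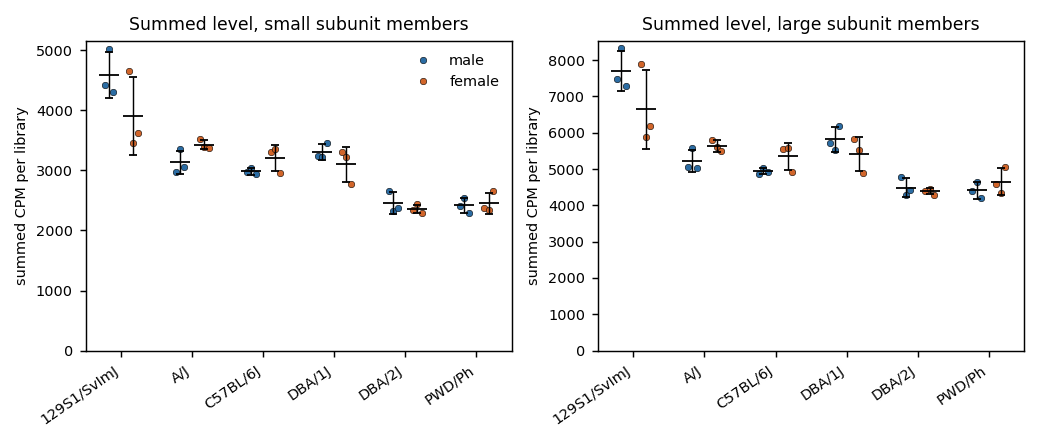
Summed CPM of the small subunit members (left) and large subunit members (right) in each of the 36 libraries, by strain, with males in blue and females in orange. Bars are means with the SD of 3 libraries, and the 129S1/SvImJ libraries sit highest while DBA/2J and PWD/Ph sit lowest.

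In 129S1/SvImJ, compared with the mean of the other 5 strains, 74 of 79 members were higher and 1 was lower, with a median log2 fold change of 0.53. Over all tested genes 35.3% were called higher and 32.1% lower, with a median of 0.01. Of the small subunit 30 of 32 members were higher, and of the large subunit 44 of 47. The lower member was Rps3a1, a small subunit protein close to where messenger RNA leaves the ribosome (log2 -0.28 ± 0.05 SE, adjusted p = 3.24e-06). Rpl22, Rpl7, Rpl3 and Rps27 did not pass the test, with log2 fold changes between -0.08 and 0.04. For 10 members no 129S1/SvImJ library overlapped the 30 others, among them Rps18, Rpsa, Rplp1 and Rps29; over all tested genes 4.25% had no overlap.

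In DBA/2J 61 members were lower and 1 was higher, with a median log2 fold change of -0.39, against 24.4% of all genes lower and 25.1% higher. In PWD/Ph 56 were lower and 6 higher, with a median of -0.32, against 36% lower and 34.4% higher. The 3 remaining strains were mixed. DBA/1J had 34 higher and 14 lower (median 0.11; 28.5% and 24.9% of all genes). A/J had 27 higher and 11 lower (median 0.13; 18.9% and 14.4%). C57BL/6J had 14 higher and 16 lower (median -0.03; 21.1% and 13.6%). These 6 comparisons share libraries, since each strain is part of the mean that the others are set against. Of the 79 members 64 had their highest strain mean in 129S1/SvImJ, and 68 had their lowest in PWD/Ph (35) or DBA/2J (33). The same counts were not made over all tested genes.

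**Figure D2:**
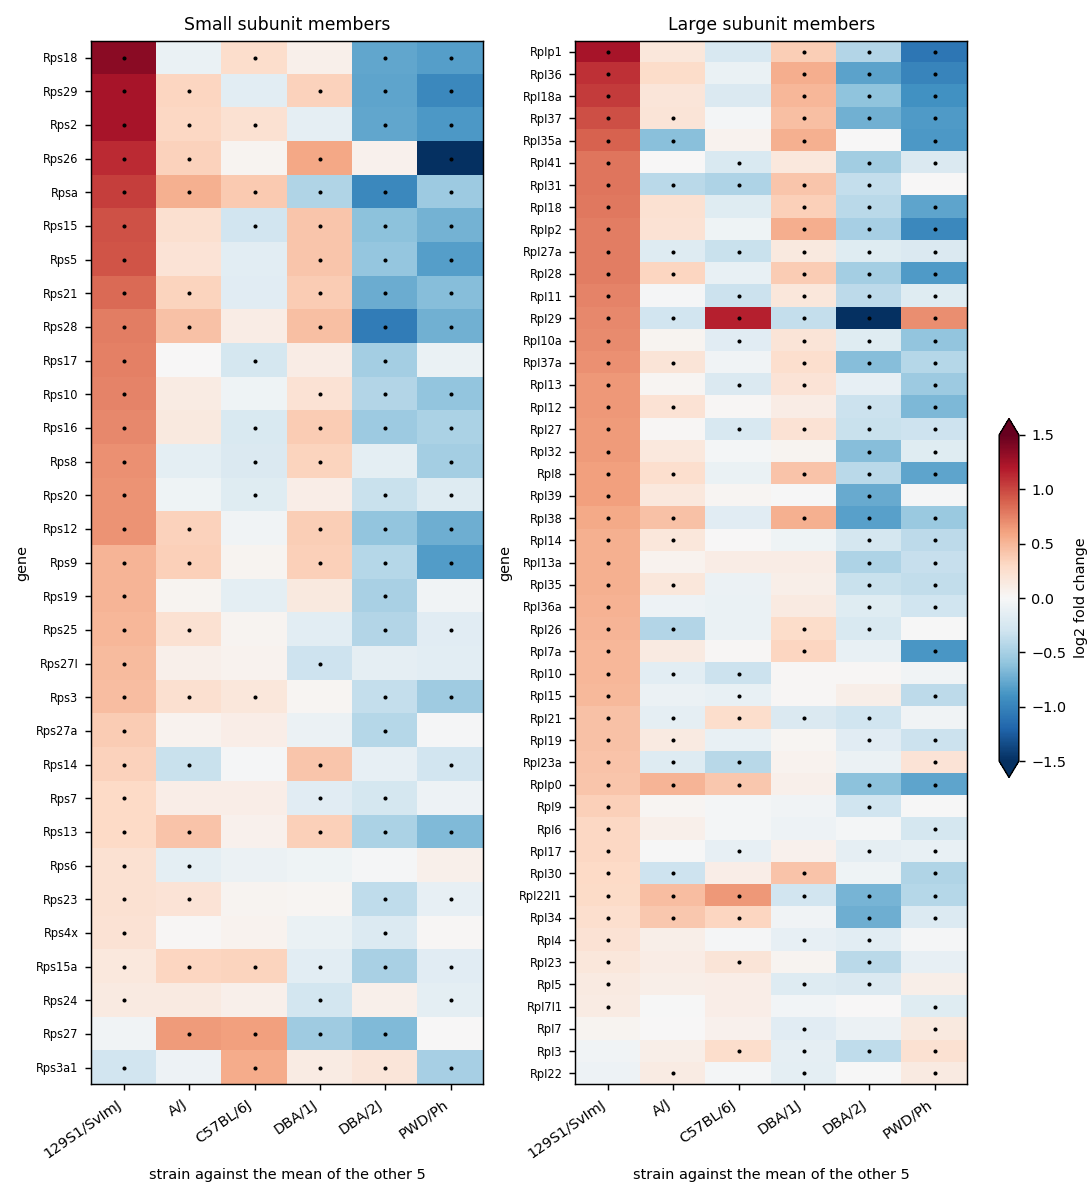
Log2 fold change of the tested members (rows, 1 member not drawn) in each strain against the mean of the other 5 strains (columns), small subunit left and large subunit right, with a dot where the adjusted p was below 0.05. The colour scale stops at 1.5 in either direction, which Rps26 in PWD/Ph (-2.16) and Rpl29 in DBA/2J (-1.94) exceed.

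Among the small subunit proteins, Rpsa had the smallest p for any strain difference (adjusted p = 7.51e-19). It encodes a protein at the platform of the small subunit that is also known as the laminin receptor precursor. The lowest, median and highest of 6 libraries were 204, 249 and 282 CPM in 129S1/SvImJ, 169, 187 and 198 in A/J, and 157, 169 and 186 in C57BL/6J. They were 97.7, 104 and 110 CPM in DBA/1J, 79.6, 94.1 and 128 in PWD/Ph, and 74.6, 77.4 and 80.6 in DBA/2J. The strains thus fell into a higher and a lower set of 3 with no overlap between the sets. Rpsa was higher in 129S1/SvImJ (log2 1.04 ± 0.05 SE, adjusted p = 9.86e-17), A/J (0.53) and C57BL/6J (0.39), and lower in DBA/2J (-0.96 ± 0.06, adjusted p = 1.99e-13), PWD/Ph (-0.55) and DBA/1J (-0.46). The DBA/1J call was lost when the counts of named pseudogenes were added (-0.02, adjusted p = 0.808).

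Rps18, a protein of the head of the small subunit, had a lowest, median and highest of 125, 161 and 183 CPM in 129S1/SvImJ. The other 30 libraries lay between 39.8 and 92.0 CPM, so there was no overlap. Its log2 fold change in 129S1/SvImJ was 1.36 ± 0.06 (SE, adjusted p = 1.69e-18), and it was lower in DBA/2J (-0.79) and PWD/Ph (-0.82). Rps2, which lines the channel where messenger RNA enters, had 148, 215 and 241 CPM in 129S1/SvImJ (log2 1.23 ± 0.06, adjusted p = 2.77e-17). It had 56.0, 63.0 and 73.2 CPM in DBA/2J and 51.0, 58.5 and 77.1 in PWD/Ph. The lowest 129S1/SvImJ library, at 148 CPM, fell within the A/J range of 85.6 to 149. Exons of Vps52 on the other strand overlap Rps18, and those of Snhg9 overlap Rps2, and the sources do not state whether counting used strand.

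Rps3a1 and Rps27 ran against the family median in some strains, though Rps27 went with it in A/J and DBA/2J. Rps3a1 had a lowest, median and highest of 177, 193 and 203 CPM in C57BL/6J, above every library of the other strains (87.1 to 164). Its log2 fold change there was 0.56 ± 0.04 (SE, adjusted p = 4.98e-12), and it was the only member called higher in DBA/2J (0.18 ± 0.05, adjusted p = 0.00128). That DBA/2J call was lost without the 3 shallowest libraries (0.17) and with limma on log2(FPKM + 0.1) (0.11). Rps27 was higher in A/J (0.63 ± 0.08, adjusted p = 2.33e-07) and C57BL/6J (0.61 ± 0.08, adjusted p = 5.57e-07) and lower in DBA/1J (-0.53) and DBA/2J (-0.66). In C57BL/6J the call was lost with limma on log2(FPKM + 0.1), at 0.12. Its 129S1/SvImJ libraries spanned 27.9 to 39.8 CPM, below the A/J median of 48.4.

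Among the large subunit proteins, Rpl29 showed the widest spread of strain means, 6.15-fold. Its lowest, median and highest of 6 libraries were 47.5, 56.6 and 64.4 CPM in C57BL/6J, 29.9, 44.6 and 56.5 in PWD/Ph and 34.97, 43.7 and 52.5 in 129S1/SvImJ. They were 19.6, 24.4 and 30.6 CPM in A/J, 17.3, 24.3 and 26.6 in DBA/1J and 6.14, 8.99 and 13.1 in DBA/2J. No DBA/2J library reached the lowest library of another strain. Rpl29 was lower in DBA/2J by a log2 of -1.94 ± 0.14 (SE, adjusted p = 3.69e-12) and higher in C57BL/6J by 1.16 ± 0.10 (adjusted p = 9.59e-11). In PWD/Ph it was the member with the smallest p among the 6 called higher (0.70 ± 0.11, adjusted p = 1.00e-06), and Rpl3, Rpl23a and Rpl7 were also among them. The call and the direction were lost for Rpl3 with pseudogenes added and for Rpl7 with GC correction or limma, where they lay between -0.0169 and -0.000768.

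Rpl37, Rpl35a and Rpl12 had their highest strain mean in 129S1/SvImJ, at 102 CPM for Rpl35a and 147 CPM for Rpl12. Rpl37 had 77.2, 99.1 and 123 CPM in 129S1/SvImJ against 31.5, 35.7 and 46.8 in DBA/2J and 25.5, 35.5 and 45.2 in PWD/Ph. Its log2 fold change in 129S1/SvImJ was 0.96 ± 0.07 (SE, adjusted p = 4.89e-13). Rpl35a had 36.4, 42.2 and 49.9 CPM in A/J, where it was lower (-0.63 ± 0.08, adjusted p = 8.38e-08), and 72.5, 80.2 and 102 in DBA/1J, where it was higher (0.53 ± 0.07, adjusted p = 2.33e-07). The A/J and DBA/1J ranges did not overlap. Rpl12, at the base of the stalk, was lower in PWD/Ph (-0.67 ± 0.06, adjusted p = 8.58e-12), with 62.7, 67.5 and 80.3 CPM.

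The 3 stalk proteins moved in the same direction at both extremes. Rplp1 had a lowest, median and highest of 332, 449 and 537 CPM in 129S1/SvImJ, above all other libraries, and 57.9, 110 and 193 in PWD/Ph. Its log2 fold changes were 1.24 ± 0.13 (SE) and -1.08 ± 0.16. Rplp2 changed by 0.77 and -0.97 and Rplp0, the anchor of the stalk, by 0.41 and -0.80, and all 6 values passed the test. Rplp0 alone of the 3 was called higher in A/J (0.51) and C57BL/6J (0.41). Whether its difference between strains departs from that of the other stalk proteins was not tested.

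**Figure D3:**
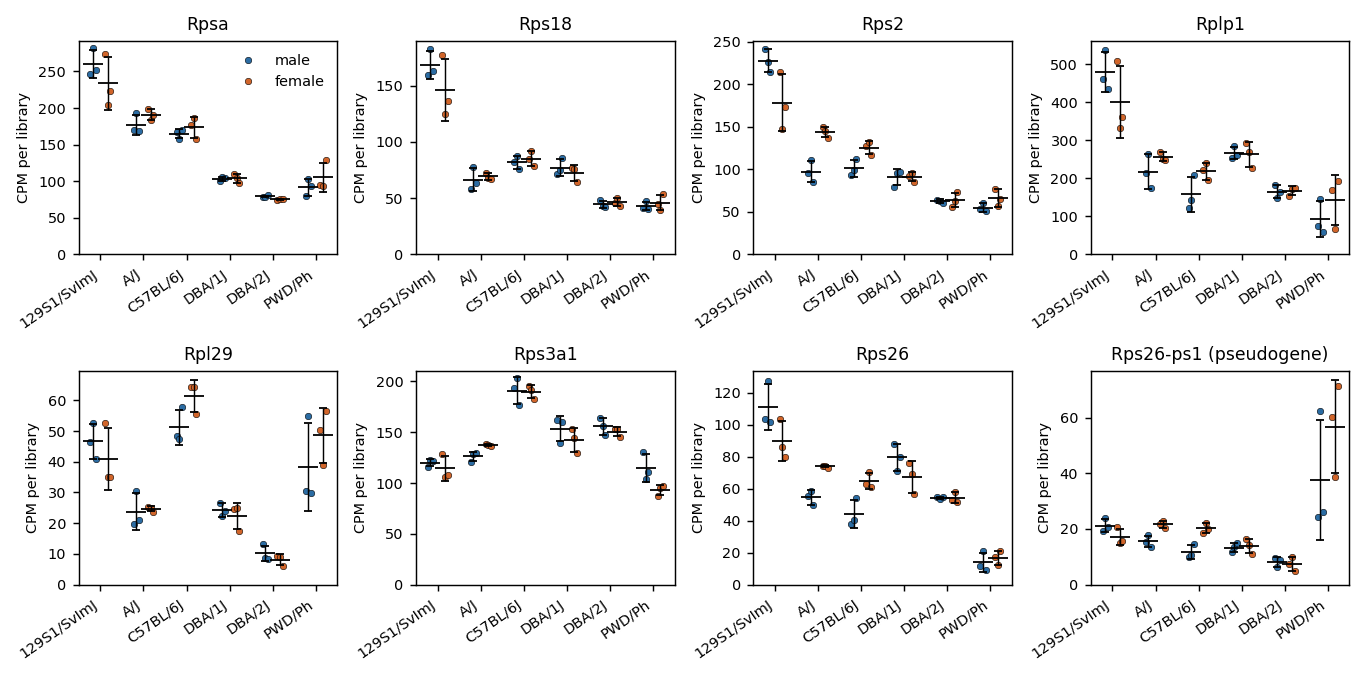
CPM per library of 7 members and of the pseudogene Rps26-ps1 by strain, with males in blue and females in orange and bars for the mean and SD of 3 libraries. Rpl29 is lowest in DBA/2J, Rps3a1 is highest in C57BL/6J, and Rps26 is lowest in PWD/Ph where Rps26-ps1 is highest.

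Ribosomal protein genes have many processed pseudogenes, and reads can be counted to either copy. The files hold 223 pseudogenes named after 56 of the members. Their summed counts equalled 90.7% of those of the member for Rpl3, 87.9% for Rpsa, 77.3% for Rpl10 and 75.4% for Rps6. The levels of these members are therefore uncertain to the extent that the authors' counting split reads between copies.

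Rps26, a protein at the messenger RNA exit, was the member whose value moved most when the named pseudogenes were added. It had a lowest, median and highest of 9.24, 14.8 and 20.9 CPM in PWD/Ph, below all other libraries (38.0 to 128), a log2 fold change of -2.16 ± 0.12 (SE, adjusted p = 2.78e-16). Rps26-ps1 went the other way, with 24.2, 49.4 and 71.2 CPM in PWD/Ph and between 5.04 and 23.8 in the other strains. With the pseudogene counts added to the gene, the PWD/Ph values were 35.5, 64.3 and 92.1 CPM and the log2 fold change was -0.42 (adjusted p = 0.00237). PWD/Ph libraries lay apart from all others for these 2 members, Rps26 and Rpl7a, and for 7.56% of all tested genes. Rpl7a (49.2 to 79.6 CPM in PWD/Ph) changed by -0.87 ± 0.06 alone and by -0.41 (adjusted p = 1.58e-07) with its pseudogenes. Rpsa stayed higher in 129S1/SvImJ (0.68) and lower in DBA/2J (-0.47) after the addition, while in DBA/1J the call was lost, as given above. Rpl29 has 3 named pseudogenes that summed to at most 3.62 CPM in any library, and its DBA/2J libraries with these added spanned 9.76 to 15.03 CPM.

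Library composition by GC content differed between strains across all genes, so the members were set against it. In 129S1/SvImJ the median log2 fold change of the other genes rose from -0.14 in transcripts of 45 to 50% GC to 0.10 at 50 to 55% and 0.37 above 55%. The members in those bins had medians of 0.36 (25 members), 0.66 (32) and 0.72 (18), so the members lay above the other genes in each. In PWD/Ph the other genes ran from 0.17 to -0.09 and -0.49 over the same bins, and the members from -0.12 to -0.36 and -0.69. In DBA/2J the other genes ran from 0.08 to -0.07 and -0.17, and the members from -0.21 to -0.44 and -0.48.

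Within the family the difference was larger in GC-rich members. Across the 79 members, which share the same libraries, Spearman's rho between GC content and log2 fold change was 0.55 in 129S1/SvImJ, 0.42 in DBA/1J, -0.42 in DBA/2J and -0.46 in PWD/Ph. After each library's GC trend was removed, rho was -0.12, -0.08, -0.10 and 0.11. The family median in 129S1/SvImJ went from 0.53 to 0.48 with 72 members higher and 3 lower. With GC content and transcript length both corrected it was 0.42, with 69 higher and 3 lower. In DBA/2J the median went from -0.39 to -0.25 with GC corrected and -0.16 with both, with 42 lower and 8 higher in the latter, against 61 and 1 without. In PWD/Ph it went to -0.26 and -0.22, with 49 lower and 10 higher in the latter. The median of all tested genes with GC corrected was 0.01 in 129S1/SvImJ, 0.09 in DBA/2J and 0.05 in PWD/Ph. With both corrected it was 0.01, 0.06 and 0.04. With both corrected, the split in A/J went from 27 higher and 11 lower to 20 and 16. In DBA/1J it went from 34 and 14 to 26 and 15, and in C57BL/6J from 14 and 16 to 13 and 28. The median of all tested genes in that fit was -0.02 in A/J, -0.03 in DBA/1J and -0.05 in C57BL/6J. The shares of all tested genes called in the corrected fits are not given here. With limma on log2(FPKM + 0.1) the splits were 23 and 4 in A/J, 38 and 6 in DBA/1J and 10 and 19 in C57BL/6J, where the median of all genes stood at 0.12, 0.08 and 0.03. With named pseudogenes added, A/J had 34 higher and 7 lower.

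**Figure D4:**
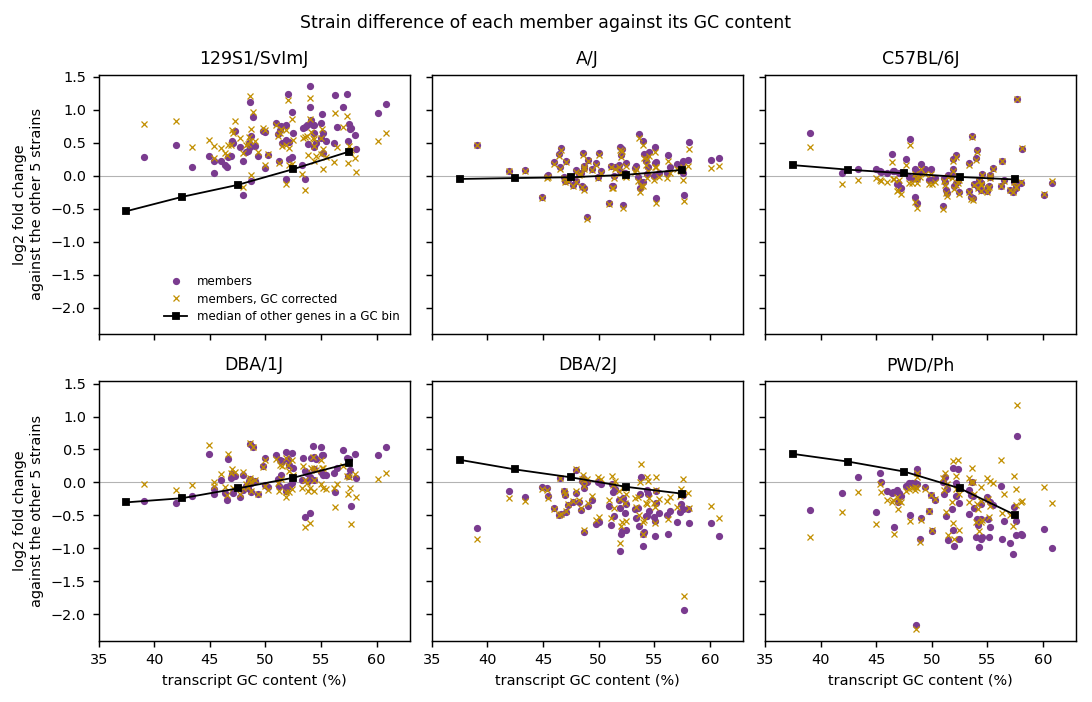
Log2 fold change of each tested member (purple dots; yellow crosses after GC correction) against the GC content of its transcripts in percent, 1 panel per strain, with black squares for the median of all other tested genes in bins of GC content. The leftmost square holds all genes below 40%, and the members lie above the black line in most of the 129S1/SvImJ panel and below it in most of the DBA/2J panel.

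The other short protein-coding genes, with transcripts of at most 1000 bases, moved less. Of 5059 tested, 2458 were higher and 1191 lower in 129S1/SvImJ (median 0.15), and 988 were higher and 1631 lower in DBA/2J (median -0.07). Nuclear-encoded subunits of the respiratory chain moved much as the ribosomal proteins did. Of 79 tested, 69 were higher and 2 lower in 129S1/SvImJ (median 0.46), with Cox5b at log2 0.95 and Uqcr10 at 1.09. In DBA/2J 66 were lower and 0 higher (median -0.36), among them Cox8a at -0.88. In PWD/Ph 48 were lower and 11 higher (median -0.22). Of 77 mitochondrial ribosomal proteins 56 were higher and 5 lower in 129S1/SvImJ (median 0.32), and 38 were lower and 7 higher in DBA/2J (median -0.17). Whether these lists differ from the cytosolic members was not tested.

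Genes tied to the ribosome's assembly and use moved in part with the members. Fau, Rack1 and Rpl36al encode ribosomal proteins that the symbol rule leaves out. They were higher in 129S1/SvImJ, with log2 fold changes of 0.98 ± 0.08 (SE, adjusted p = 2.11e-11), 0.70 and 0.43. They were lower in DBA/2J, at -0.54, -0.36 and -0.28. In PWD/Ph Fau (-0.62) and Rack1 (-0.37) were lower and Rpl36al did not pass the test (0.07). Of 36 ribosome biogenesis genes 21 were higher and 4 lower in 129S1/SvImJ (median 0.19). Eif6, which keeps the subunits apart during assembly, was higher there (0.99) and lower in DBA/2J (-0.60). Of 19 elongation factors and other genes of the pyrimidine-start class, 14 were higher and 3 lower in 129S1/SvImJ (median 0.36), led by Eif3k at 0.89. In PWD/Ph 10 were lower and 5 higher, with Eef2, the translocation factor, at -0.63. Of 20 mTORC1 and LARP1 genes 6 were higher and 8 lower in 129S1/SvImJ (median -0.05), against 35.3% and 32.1% of all tested genes.

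Marker genes of cell types also differed between strains. The 6 excitatory neuron markers summed to 7367 to 7977 CPM in 129S1/SvImJ, above the 4896 to 6832 CPM of all other libraries, though 3 of the 6 were called higher there and 2 lower. The 6 astrocyte markers summed to 3139 to 4381 CPM in 129S1/SvImJ and 4262 to 7364 elsewhere. Of 7 oligodendrocyte and myelin markers 6 were higher in 129S1/SvImJ (median log2 0.48), 7 in C57BL/6J (0.43), and 6 were lower in PWD/Ph (-0.76). No marker of these 3 lists was at 0 in all libraries of a strain. Other marker lists were also summed and are not described in full here. Among them, the 6 microglia markers summed to 143 to 160 CPM in PWD/Ph, and the lowest library of the other strains, in DBA/2J, had 171. Choroid plexus markers ran from 29.9 CPM in a PWD/Ph library to 3292 in a DBA/2J library. The part of the marker genes in the strain differences of the ribosomal proteins was not tested.

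Between the sexes over all strains, 0 of 79 members were called, against 0.239% of all tested genes. At an unadjusted p below 0.05 there were 10, against 14.4% of all tested genes, and DESeq2 and limma on log2 FPKM also called 0. The median log2 fold change of females against males was -0.01, and single members ranged from -0.17 to 0.18. The 4 members on the X chromosome were not called either. Rpl10, the protein whose joining completes the large subunit, had a log2 fold change of -0.02 ± 0.03 (SE), Rps4x of -0.07 ± 0.04, Rpl36a of -0.11 ± 0.05 and Rpl39 of -0.13 ± 0.07, with adjusted p between 0.263 and 0.872.

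Within strains edgeR called 1 member, Rps2 in A/J. There, 5.32% of all tested genes were called. The 3 female A/J libraries had 137, 145 and 149 CPM of Rps2 and the 3 male libraries 85.6, 95.9 and 111. The groups did not overlap, as was so for 37 members and 34.5% of all tested genes in A/J, and the log2 fold change was 0.56 ± 0.12 (SE, adjusted p = 0.00521). Reads of the overlapping antisense gene Snhg9 had means of 0.257 and 0.615 CPM in A/J females and males, against 144 and 97.3 for Rps2. With the Rps2 pseudogenes added the log2 fold change was 0.49 (adjusted p = 0.00963).

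Of 79 members 1 passed the test for an interaction of sex and strain, a share no higher than the 1.64% of all tested genes. Rpl23a (adjusted p = 0.0830) and Rpl15 (0.0943) came next without passing, which does not show an equal sex difference in all strains. The 1 member was Rps2 (interaction adjusted p = 0.0219), whose sex difference varied between strains. In 129S1/SvImJ the difference went the other way without passing the test, with 148, 173 and 214 CPM in females, 215, 226 and 241 in males, and a log2 fold change of -0.35 ± 0.12 (adjusted p = 0.250). In C57BL/6J females had 117, 128 and 132 CPM and males 92.9, 98.8 and 112 (0.31 ± 0.12, adjusted p = 0.260). In DBA/1J and DBA/2J the log2 fold changes were 0.01 and 0.02. The interaction no longer passed in 6 of 36 fits that left out 1 library, with adjusted p between 0.0510 and 0.0615. The libraries were 129S1/SvImJ male 1, 129S1/SvImJ females 2 and 3, A/J males 1 and 3 and A/J female 1. With GC content and length corrected its adjusted p was 0.00645 and 11 members were called, among them Rpl13a, Rpl23a and Rpl35a. The share of all tested genes called in that fit is not given here.

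No member was called between the sexes in the 5 remaining strains by edgeR. Over all tested genes the share called was 0.102% in 129S1/SvImJ, 0.279% in C57BL/6J, 0.0609% in DBA/1J, 0.0508% in DBA/2J and 0.122% in PWD/Ph. At an unadjusted p below 0.05 there were 29 members in 129S1/SvImJ, 6 in C57BL/6J, 6 in DBA/1J, 3 in DBA/2J and 23 in PWD/Ph. The shares of all tested genes at that threshold were 13.2%, 12.4%, 5.43%, 7.82% and 15.6%. DESeq2 called Rps3a1 in PWD/Ph (-0.29, adjusted p = 0.0400) and 0 in the other 4. The direction of most members differed by strain. The log2 fold change was below 0 in 78 of 79 members in 129S1/SvImJ (median -0.23), above 0 in 70 in A/J (0.11) and in 66 in C57BL/6J (0.10), and below 0 in 68 in DBA/1J (-0.10). It was below 0 in 56 in DBA/2J (-0.05) and above 0 in 47 in PWD/Ph (0.05). Of all tested genes between 47.1% (PWD/Ph) and 51.5% (A/J) were above 0 in a strain. Members share the same libraries, so their signs are not independent. In PWD/Ph members ranged from -0.36 to 0.63, and Spearman's rho with GC content across the 79 members was 0.74, falling to 0.38 after GC correction.

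In 129S1/SvImJ, PWD/Ph, DBA/1J and A/J the count of members called between the sexes changed when single libraries were left out. The A/J count went from 1 to 2 without 129S1/SvImJ female replicate 1. In 129S1/SvImJ the summed level was 11580, 11914 and 13347 CPM in males and 9323, 9806 and 12538 CPM in females, so the groups overlapped through 1 female library. Summed markers of some lists separated the same males and females without overlap. They were at 160 to 170 and 123 to 141 CPM for endothelial and mural cells, 243 to 332 and 117 to 219 for meningeal fibroblasts, and 4240 to 6470 and 3485 to 4042 for oligodendrocytes. All other lists overlapped, among them excitatory neurons (7465 to 7977 and 7367 to 7704) and astrocytes (3139 to 4381 and 3577 to 4369). Among single genes, 1 member and 14.2% of all tested genes had no overlap between these groups. The part of the markers in the sex difference was not tested. Without that library, female replicate 1, 19 members were called in 129S1/SvImJ, against 1.84% of all genes in the same fit. It was the 1 female library that overlapped the males, so leaving it out widens the gap and adds no separate support for a sex difference. Without PWD/Ph male replicate 2, 21 members were called in PWD/Ph, against 8.54%. Without PWD/Ph female replicate 2 there were 8, against 7.61%, and without DBA/1J male replicate 2 there were 2 in DBA/1J, against 0.345%. With GC and length corrected 8 members were higher in A/J females, and with only the 6 A/J libraries fitted there were 7. In the main fit 5.32% of all tested genes were called in A/J, and the shares in these other fits are not given here.

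**Figure D5:**
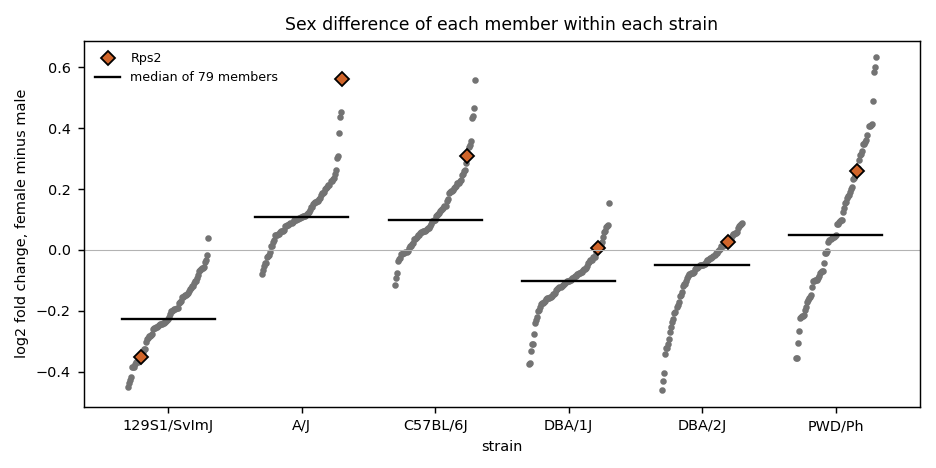
Log2 fold change of females against males for each of the 79 tested members within each strain, sorted within a strain, with Rps2 as an orange diamond and a line at the median. The medians run from -0.23 in 129S1/SvImJ to 0.11 in A/J, and Rps2 is the highest member in A/J.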

How the data were processed

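Gene counts and FPKM of 36 hippocampus libraries were used as the authors deposited them, in 1 table per strain. The counts are raw whole numbers per Ensembl gene, and the authors deposited FPKM values beside them. Per the submitters' processing notes, the tools included Cufflinks 2.1.1, TopHat2 2.0.13, Trimmomatic 0.32, DESeq2 1.8.1 and SAMtools, with the build GRCm38. The sources do not state the counter, its strand setting or the annotation release.

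Symbols were matched to 35449 of the 37315 gene identifiers. Counts were fitted with edgeR 4.0.16 (quasi-likelihood F test, TMM, 12 group means, all 36 libraries) after filterByExpr, which kept 19702 genes, and each strain was set against the mean of the other 5. GC content and length trends were removed as loess offsets per library (span 0.5). The script was tested on simulated data. Alternatives were DESeq2 1.42.0, limma 3.58.1 on log2(FPKM + 0.1) and log2(FPKM + 1), other filters and scaling, added pseudogene counts, the replicate block and leaving out libraries. Fold changes on the FPKM scale understate those of low genes. Members, lists and the rule for named genes were chosen with earlier results of these data known. The rule took up to 5 called members per direction and comparison by smallest p, the 8 smallest p of each F test, the 5 highest and 5 lowest FPKM, X-linked members and paralogs, and up to 4 genes per other list. Stalk members and other genes named outside the rule were chosen after their values were seen. Library totals set the precision, and the 3 shallowest libraries, all of DBA/2J, are the least precise. Single values of some genes are not reported here.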

Additional observations from a re-analysis of the deposited data

Results flagged for a closer look

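Within the 6 libraries of a strain, a gap test picked out a single library in 4 of 66 groups, and chance picks out about 1 group in 20. In DBA/1J, female replicate 3 had the lowest Rpl37 at 59.0 CPM and the lowest Rpl12 at 83.7 CPM. In the same strain male replicate 3 had the highest Rpl35a at 102 CPM. In DBA/2J, male replicate 1 had the highest summed level of all members at 7436 CPM.

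The difference between females and males in Rps2 itself differed between strains by the interaction term of edgeR's quasi-likelihood test (adjusted p = 0.0219). Over all tested genes 1.64% passed that test. Rps2 values were higher in A/J females and, without passing the test within that strain, lower in 129S1/SvImJ females.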

How the results depend on the processing

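Any strain difference was called for 79 members in every fit that left out 1 library. Leaving out each library in turn gave 70 to 75 called members in 129S1/SvImJ, 29 to 43 in A/J, 23 to 34 in C57BL/6J, 43 to 55 in DBA/1J, 59 to 67 in DBA/2J and 54 to 63 in PWD/Ph. Between the sexes it gave 0 to 0 over strains, 0 to 19 in 129S1/SvImJ, 1 to 2 in A/J, 0 to 0 in C57BL/6J, 0 to 2 in DBA/1J, 0 to 0 in DBA/2J and 0 to 21 in PWD/Ph, and 0 to 13 for the interaction. Over strains without 129S1/SvImJ 2 members were called between the sexes. In A/J the count of 1 became 4 with GC correction, 8 with GC and length, 9 with these and the replicate block, 2 with limma on log2(FPKM + 1) and 7 with the strain's own libraries. In C57BL/6J 0 became 1 without the low-count filter, 1 with GC and length, 1 with the block added and 4 with its own libraries, and in PWD/Ph 0 became 1 with DESeq2. The interaction count of 1 became 9 without the filter, 6 with DESeq2, 6 with GC correction, 11 with GC and length, 11 with the block added and 0 with limma on log2(FPKM + 0.1). The shares of all tested genes in these fits are not set beside the counts, so the counts describe the processing and not the family. The cause was not tested.

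In PWD/Ph, Rpl3 was at -0.000768 with pseudogenes added. Rpl7 there was at -0.0169 with GC correction, -0.00936 with GC and length, -0.00914 with the block added, and -0.00110 and -0.00114 with limma. The replicate number as a block gave 75, 39, 30, 49, 62 and 62 called members in the 6 strains in the order above, and changed no count by over 1.5 times. Same-numbered libraries did not deviate together (median r -0.004 over 198 pairs, 22 over 0.1, and 7 of 36 libraries closest to their own number). Without the 3 shallowest DBA/2J libraries, a choice made after seeing the data, 56 members were lower in DBA/2J and 0 higher.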
